A study of Mus musculus with 4 samples.

Results

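The interferon-induced transmembrane (IFITM) family was followed by RNA-seq in mouse embryonic stem cells (ESCs) depleted of Ythdf2, to ask whether the higher Ifitm1 transcript level seen in the knockdown was shared by its relatives. The members were the 7 genes named Ifitm1, Ifitm2, Ifitm3, Ifitm5, Ifitm6, Ifitm7 and Ifitm10 among the 49997 genes of the deposited count table. The family was chosen by the read counts of Ifitm1, which were higher in shYthdf2 than in shScramble cells, so all its values in that contrast are a description and carry no test. The cells were of the E14 line, labelled mouse embryonic stem cells, and by the study's methods both groups carried a tdTomato transgene driven by the MERVL promoter. Both groups were infected with lentivirus that expressed a short hairpin RNA from a U6 promoter, either a scrambled sequence (shScramble) or one directed at Ythdf2 (shYthdf2), and were selected with puromycin as stable lines. Each group had 2 libraries, all from cultures on gelatin with leukemia inhibitory factor and serum replacement. The methods list more than 1 hairpin against Ythdf2, and the labels do not say which was used, so an effect of Ythdf2 loss and of that hairpin or line cannot be told apart.

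IFITM proteins are small membrane proteins that make cell and endosomal membranes resist fusion with enveloped viruses, and most of their genes are switched on by interferons in differentiated tissues. Ifitm3, also known as fragilis, and Ifitm1 are in addition classic surface markers of early primordial germ cells and are transcribed in pluripotent cells without added interferon. Ifitm5 is the bone-restricted member, made by osteoblasts. YTHDF2 is a cytoplasmic protein that binds mRNAs carrying N6-methyladenosine (m6A) and recruits the machinery that shortens their poly(A) tails.

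Total reads per library lay between 31113006 and 36422510. The level of a gene is given as CPM, its reads scaled to a common library total with TMM factors (counts per 1000000 reads), and levels of different genes are set side by side only per length, as CPM per kilobase of counted exon. Where a gene had no reads, its upper limit was set at 3 reads (0.0833 to 0.0952 CPM depending on the library), which covers counting error only. Ythdf2 itself had 34.2% of its control level left, with 90.5 ± 4.12 CPM in control cells against 31.0 ± 1.08 CPM in knockdown cells (SD, n = 2; log2 fold change -1.55, SE 0.11, edgeR adjusted p = 0.00069). The 14 ESC markers were all expressed, with a summed level of 8110 to 8381 CPM in shScramble and 7403 to 8020 CPM in shYthdf2. Of these Pou5f1 and Nanog, core regulators of pluripotency, had the highest levels, and their log2 fold changes were 0.13 (SE 0.11, edgeR adjusted p = 0.54) and -0.41 (SE 0.10, edgeR adjusted p = 0.059), and only Tdgf1, a Nodal co-receptor, passed the threshold in edgeR (log2 fold change -0.47, edgeR adjusted p = 0.041). At an unadjusted p under 0.05, 1 of the 14 was higher and 4 were lower, and DESeq2 called 1 higher and 3 lower, limma-voom 0 and 2.

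The genes form a cluster on chromosome 7 of the mm10 build, in the order Ifitm5, Ifitm2, Ifitm1, Ifitm3 and Ifitm6, within which Ifitm1 alone is on the plus strand. Ifitm1 spans 140967429 to 140969827, Ifitm2 lies from 140954837 to 140959686 and Ifitm3 from 141009590 to 141010744. Ifitm5 spans 140948958 to 140950243 and Ifitm6 lies from 141015812 to 141016892. Ifitm10 lies outside the cluster on the same chromosome, from 142325835 to 142373779, and Ifitm7 is on chromosome 16 from 13981702 to 13986867, both on the minus strand.

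The start regions of the 3 expressed members are shown because they differ in the motifs through which interferon is known to act. Each RefSeq promoter window, 250 bases before to 50 bases after a start on GRCm38.p6, was searched on both strands for the core of the interferon-stimulated response element (ISRE), a pair of GAAA runs with any 2 bases between them, and for the gamma-activated sequence (GAS), TTCNNNGAA. The ISRE core was in 3.43% of the 32817 promoter windows of the table and the GAS letters in 8.29%. Sequences are given 5′ to 3′ in lower case with ISRE cores in capitals. For Ifitm1 they are the first 202 bases of the window, up to the first counted exon inside it (chr7:140967826-140968027, plus strand). For Ifitm2 (chr7:140955988-140956017, minus strand) and Ifitm3 (chr7:141010714-141010743, minus strand) they are the 30 bases around the cores:
Ifitm1: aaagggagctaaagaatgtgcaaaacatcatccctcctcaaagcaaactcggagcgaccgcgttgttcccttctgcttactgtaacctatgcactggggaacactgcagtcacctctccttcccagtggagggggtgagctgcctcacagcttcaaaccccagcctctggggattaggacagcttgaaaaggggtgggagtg
Ifitm2: ccaccaacagGAAAAGGAAAttgctagaga
Ifitm3: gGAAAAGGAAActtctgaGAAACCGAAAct

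The Ifitm3 window held 2 ISRE cores, both just downstream of the RefSeq start in the first exon, and a GAS match that overlaps the second of them. The Ifitm2 window held 1 core, 46 bases before its RefSeq start and inside a counted exon of another isoform, with the same letters as the first core of Ifitm3. The Ifitm1 window held 0 matches to either motif, as did the windows of Ifitm5 and Ifitm7 and all 3 windows of Ifitm10, and Ifitm6 had 1 GAS match. A match is only a run of letters, and its absence says that these letters are not in this window. The counted exons of Ifitm1 begin at 140967429, before its window, and the bases around that position were not searched.

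Ifitm1 showed the widest separation between the groups. It had 1066 and 1192 reads in shScramble replicates 1 and 2, and 3904 and 3470 reads in shYthdf2 replicates 1 and 2. On the CPM scale these were 29.6 and 37.8 in control libraries against 114 and 97.0 in knockdown libraries, with means of 33.7 ± 5.82 and 106 ± 12.2 CPM (SD, n = 2). The groups did not overlap, and the lower knockdown library stood 2.56-fold above the higher control library, whereas the 2 controls differed by 1.28-fold and the 2 knockdown libraries by 1.18-fold. The ratio of the means was 3.13 and the fitted log2 fold change 1.65 (SE 0.15). Among the 18341 genes that passed the filter on low counts, 242 had a larger log2 fold change than Ifitm1, and the median of all was 0.00, with quartiles of -0.25 and 0.25.

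Ifitm3, the member best known for blocking virus entry from endosomes, was also higher in both knockdown libraries. Its reads numbered 3215 and 2765 under shScramble and 5706 and 4348 under shYthdf2, or 89.3 and 87.8 against 167 and 121 CPM. The control libraries were almost level, with a mean of 88.5 ± 1.06 CPM, while the knockdown libraries were 1.37-fold apart around 144 ± 32.1 CPM (SD, n = 2). The ratio of means was 1.63 and the log2 fold change 0.70 (SE 0.15), which became 0.46 without shYthdf2 replicate 1, the higher of the pair.

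Ifitm2, a close relative of Ifitm3 in the same cluster, was higher in the knockdown by the smallest margin of the 3 expressed members. It had 6674 and 6423 control reads and 9247 and 8378 knockdown reads, which is 185 and 204 CPM against 270 (270.49 before rounding) and 234 CPM. The group means were 195 ± 13.1 and 252 ± 25.7 CPM (SD, n = 2), a ratio of 1.30 and a log2 fold change of 0.37 (SE 0.11). The groups did not overlap, but the gap from the higher control to the lower knockdown library, 1.15-fold, was no wider than the 1.16-fold gap between the knockdown libraries themselves.

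The remaining members were scarce or near absent in these cells. The bone-restricted Ifitm5 had 31 and 38 reads in shScramble and 47 and 51 reads in shYthdf2, with means of 1.03 ± 0.24 and 1.40 ± 0.036 CPM (SD, n = 2). Its groups did not overlap, yet its log2 fold change of 0.44 was about as large as its SE of 0.42, and it became 0.22 without shScramble replicate 1 and 0.70 without shScramble replicate 2. Ifitm7 had 54 and 60 control reads against 47 and 116 knockdown reads, so that the knockdown libraries lay on either side of both controls. Its log2 fold change of 0.44 (SE 0.44) turned to -0.30 without shYthdf2 replicate 2. Ifitm7 also shares 238 exon bases with Bmerb1, a gene on the opposite strand that had 1032 to 2037 reads, and the counting did not use strand. Bmerb1 rose in shYthdf2 (log2 fold change 0.74, SE 0.12, edgeR adjusted p = 0.013), and its part in the Ifitm7 reads was not tested. Ifitm6 had 7, 7, 9 and 6 reads in the 4 libraries and Ifitm10 had 2, 2, 4 and 0, both under the filter, and neither showed a direction.

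**Figure D1:**
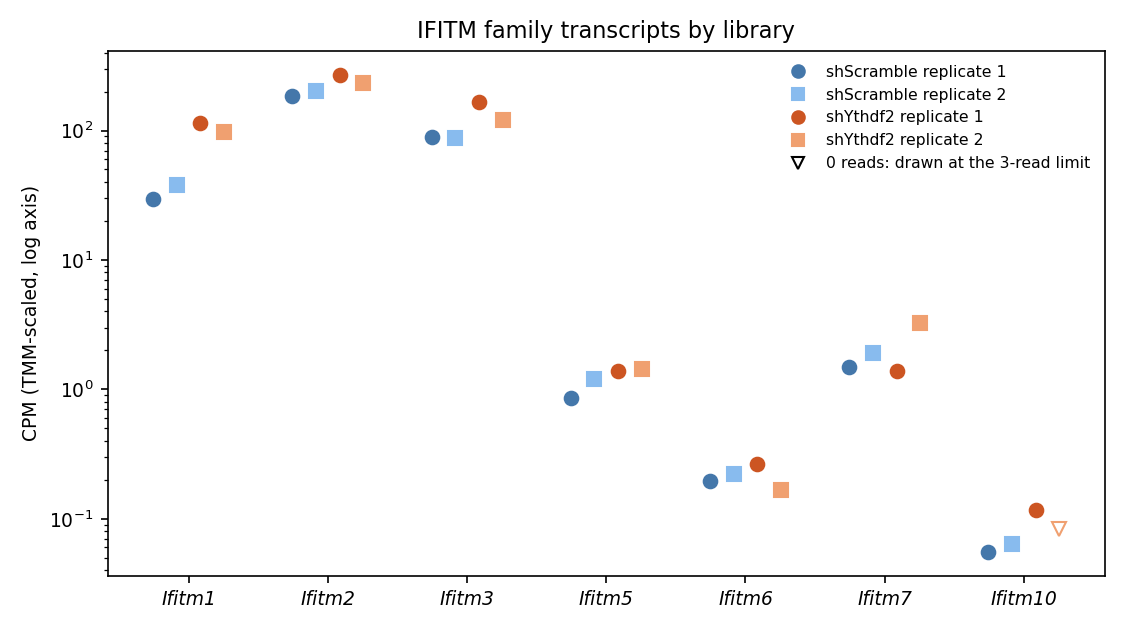
Level of each IFITM gene in each library, in TMM-scaled CPM on a log axis. Ifitm1 lies at 29.6 and 37.8 CPM in shScramble and 114 and 97.0 CPM in shYthdf2, Ifitm2 and Ifitm3 are separated by less, the knockdown points of Ifitm7 straddle the controls, and the open triangle marks a library with 0 reads drawn at its 3-read limit.

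Of the 7 members, 5 passed the filter, and 4 of these, Ifitm1, Ifitm2, Ifitm3 and Ifitm5, had both knockdown libraries above both control libraries. The same was true of 26.2% of all genes tested, and 25.5% had both knockdown libraries below, while 3.91% of genes passed an edgeR adjusted p under 0.05 in either direction (20.8% at an unadjusted p under 0.05). Because this is the contrast that picked the family, nothing is read from the count. In bulk RNA, a different number of cells that express a gene and a different amount of its RNA per cell cannot be told apart.

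Per length, Ifitm2 and Ifitm3 stood at the top of the family in control cells, at 141 ± 9.48 and 137 ± 1.64 CPM per kilobase (SD, n = 2), and did not differ beyond the spread. Ifitm3 was ahead of Ifitm2 in 3 libraries and behind it in shScramble replicate 2. In knockdown cells their levels per length were 182 ± 18.6 for Ifitm2 and 223 ± 49.6 for Ifitm3, again within the spread of Ifitm3. The deposited length of Ifitm2 is 1384 bases, longer than its annotated coding transcript of 655 bases in GENCODE vM21. Levels per length were computed on the deposited one, and on the shorter one Ifitm2 would stand higher. Its place beside Ifitm3, and the shares and sums per length below, therefore rest on that length. Ifitm1 held place 3 in every library, at 39.0 ± 6.74 in shScramble and 122 ± 14.1 in shYthdf2. A wide step separated these 3 from Ifitm7, at 1.97 ± 0.33 and 2.67 ± 1.53, and Ifitm5, at 1.44 ± 0.34 and 1.95 ± 0.050, whose order turned in shYthdf2 replicate 1. Ifitm6 followed with 0.310 to 0.487 CPM per kilobase over the 4 libraries, and Ifitm10 came last with at most 0.0208.

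The balance within the family differed between the groups. Ifitm1 supplied 11.1% and 13.2% of the summed level per length in the control libraries and 22.4% and 23.6% in the knockdown libraries. The ratio of Ifitm1 to Ifitm2 per length was 0.256 and 0.297 in control against 0.676 and 0.663 in knockdown cells, and that of Ifitm1 to Ifitm3 was 0.249 and 0.323 against 0.513 and 0.599. Neither ratio overlapped between the groups, and both are free of the scaling between libraries. The share of Ifitm2 moved the other way, from 43.3% and 44.5% to 33.2% and 35.6%. The share of Ifitm3 overlapped, at 44.6% and 40.9% against 43.7% and 39.5%.

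Summed over all 7 members, the family level per length was 309 and 331 CPM per kilobase under shScramble and 589 and 475 under shYthdf2, with means of 320.0 ± 15.3 and 532 ± 80.8 (SD, n = 2). The difference of these means was 212 CPM per kilobase. Ifitm3 accounted for 85.9 of it (40.5%), Ifitm1 for 83.2 (39.2%) and Ifitm2 for 41.7 (19.7%). On this scale Ifitm1 and Ifitm3 contributed about equal amounts of the difference, Ifitm1 from the lower control level. The split rests on the deposited lengths. In CPM, not divided by length, the difference of the means was 186. Of this, Ifitm1 accounted for 71.9 (38.6%), Ifitm2 for 57.7 (31.0%) and Ifitm3 for 55.7 (29.9%). In reads, Ifitm1, Ifitm2 and Ifitm3 made up 98.9% to 99.4% of the family in each library.

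**Figure D2:**
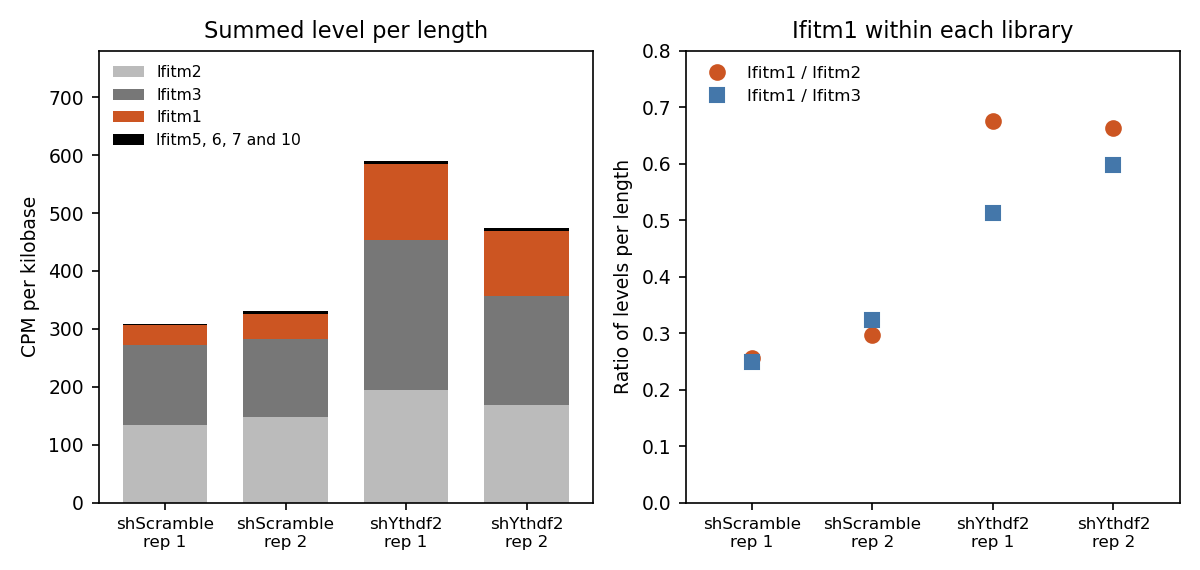
Left, stacked level per length (CPM per kilobase) of the IFITM genes in each library; right, the ratio of Ifitm1 to Ifitm2 and to Ifitm3 per length in each library, on a linear axis from 0. The Ifitm1 segment grows from 11.1% and 13.2% of the stack in shScramble to 22.4% and 23.6% in shYthdf2, and both ratios are higher in each shYthdf2 library than in either control.

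The members are alike in sequence but not identical over a read. Over aligned positions of the coding sequence, Ifitm1 was 82.1% identical to Ifitm2 and to Ifitm3, and Ifitm2 was 80.9% identical to Ifitm3. The closest pair with Ifitm1 was Ifitm7, at 89.3%. In the annotated coding transcripts, of 655 to 882 bases, 0 windows of 150 bases (the read length) were shared between any pair of members. Of the windows of Ifitm2 and of Ifitm5, 23.5% and 13.2% were shared with Gm45717, a GENCODE gene model that has no row in the count table. The sequence GGACT, the most common form in which m6A is found, occurred in Ifitm1 2 times, once in each UTR, 2 times each in Ifitm5 and Ifitm6 as well, and in Ifitm2, Ifitm3, Ifitm7 and Ifitm10 0 times. At least 1 such match was present in 86.7% of the 21877 genes with a coding transcript, and the median density was 1.02 per kilobase against 2.27 in Ifitm1, 2.61 in Ifitm5 and 2.46 in Ifitm6. Methylation of these transcripts was not measured in the data used here.

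The 5 genes whose profile over the 4 libraries was most like that of Ifitm1 were Exoc3l2, Efs, Mia, Nkain4 and Plch2, by the Euclidean distance of log2 CPM centred on each gene's own mean, among 14436 genes. Their distances were 0.11 to 0.14, whereas those of the family members were 1.01 for Ifitm3, 1.23 for Ifitm5, 1.29 for Ifitm2 and 1.68 for Ifitm7. Efs, an SH3-domain adaptor of integrin and Src signalling, had 487 and 565 control reads and 1651 and 1600 knockdown reads (log2 fold change 1.57, SE 0.16). Mia, a small secreted protein of cartilage and melanoma cells, had 59 and 63 against 216 and 212 reads. Exoc3l2, the nearest of all, rested on 16 and 18 against 62 and 51 reads. These genes were chosen for likeness in the same contrast, with only 4 points each, so no test is given.

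Interferon-stimulated genes (ISGs) were examined because they normally move together with the IFITM genes. Of a list of 56 ISGs that leaves out the family, 55 were in the table and 37 passed the filter. At the threshold of an edgeR adjusted p under 0.05, 2 of the 37 were higher and 0 lower in shYthdf2, next to 2.43% higher and 1.49% lower among all genes tested. The median log2 fold change of the list was 0.18, with 25 positive and 12 negative values, against 0.00 over all genes. At an unadjusted p under 0.05, 5 were higher and 1 lower, and DESeq2 and limma-voom each called 2 higher and 0 lower. Both knockdown libraries were above both controls for 14 of the 37 and below both for 4 (26.2% and 25.5% of all genes tested).

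The 2 called ISGs were Tap1 and Irf9. Tap1 carries peptides into the endoplasmic reticulum for MHC class I. It had 62 and 99 control reads and 333 and 226 knockdown reads, groups that did not overlap (log2 fold change 1.73, SE 0.35, edgeR adjusted p = 0.029). Irf9 is the DNA-binding subunit of the interferon-activated factor ISGF3 and had 432 and 354 against 644 and 679 reads (log2 fold change 0.70, SE 0.17, edgeR adjusted p = 0.049). Its call was lost in 5 of 13 other settings, among them scaling by library totals (adjusted p = 0.054) and the edgeR fit without shScramble replicate 2 (adjusted p = 0.13).

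Some ISGs that are common reporters of an interferon response were at or near 0 in both groups. The 18 ISGs under the filter had at most 22 reads in any library and together 41 and 41 reads in shScramble and 63 and 66 in shYthdf2. Isg15, a ubiquitin-like modifier, had 2 reads in 1 control library and 0 in the other 3 libraries. Ifit1, which binds foreign RNA caps, had 6 reads in shYthdf2 replicate 1 and 0 elsewhere, and Mx2, an antiviral GTPase, had 0 reads in all 4. Irf7, the factor that amplifies type I interferon and lies near the Ifitm cluster, had 6, 6, 6 and 13 reads. Zbp1 (7 and 8 against 22 and 10 reads) and Rtp4 (0 and 2 against 4 and 14) had more reads in both knockdown libraries than in both controls. Gbp2 (5 and 5 against 4 and 2) had fewer in both. All of these were named after their values were seen. The 37 ISGs that passed the filter ranged from -0.95 to 1.73 in log2 fold change.

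Upstream of the ISGs, 27 of 28 listed ligand, receptor and signalling genes were in the table and 20 passed the filter, of which 0 were higher and 2 lower by edgeR's adjusted p (0 and 3 at an unadjusted p under 0.05, and again 0 and 2 by DESeq2 and by limma-voom). All 7 genes under the filter were ligands (Ifnb1, Ifna1, Ifna2, Ifna4, Ifng, Ifnl2 and Ifnl3) and had 0 reads in every library. Il10rb, the receptor chain shared by interferon lambda and interleukin 10, fell from 137 and 120 reads to 30 and 40 (log2 fold change -1.93, SE 0.34, edgeR adjusted p = 0.018). Ifngr1, the ligand-binding chain of the interferon gamma receptor, fell from 198 and 185 reads to 75 and 88 (log2 fold change -1.29, SE 0.27, edgeR adjusted p = 0.035). Both calls held in all 13 other settings. The median log2 fold change of the list was -0.05.

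**Figure D3:**
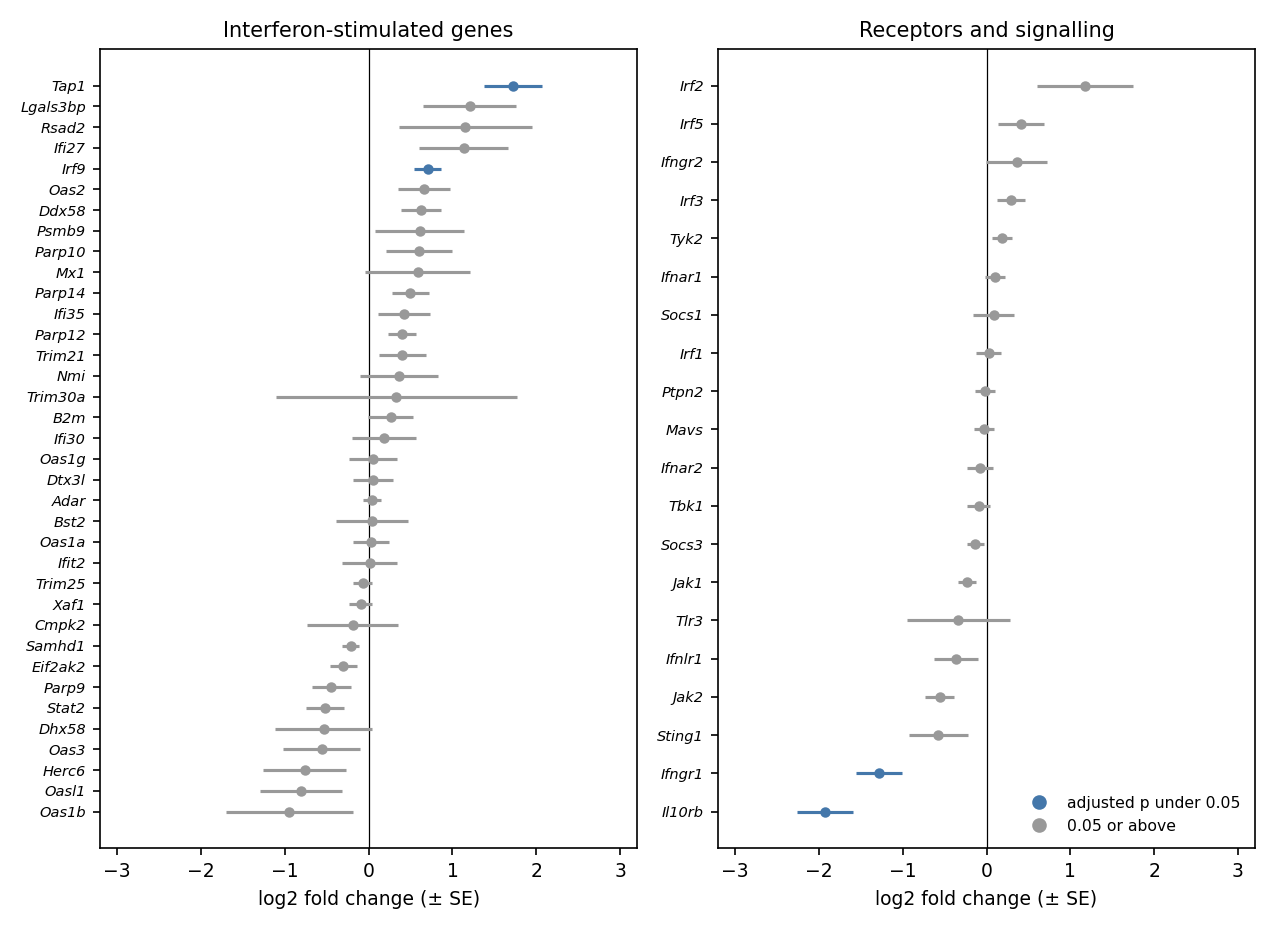
log2 fold change (shYthdf2 over shScramble) with its SE for 36 of the 37 interferon-stimulated genes and the 20 receptor and signalling genes that passed the filter, IFITM members left out. Blue points have an edgeR adjusted p under 0.05: Tap1 and Irf9 on the right of 0, Ifngr1 and Il10rb on the left, and most other points lie within 1 log2 unit of 0.

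No listed gene that acts on IFITM proteins passed the threshold in edgeR. Of 13 palmitoylation, ubiquitination, methylation and trafficking partners, all passed the filter and 0 were called in either direction by edgeR's adjusted p (1 higher and 2 lower at an unadjusted p under 0.05, 1 and 1 by DESeq2, 0 and 0 by limma-voom). The most abundant were Nedd4, the ubiquitin ligase that turns over IFITM3, and Vcp, an ATPase involved in its sorting, with log2 fold changes of 0.10 (SE 0.12) and -0.02 (SE 0.11). Of 7 other genes of the wider dispanin family in the table, 5 passed and 0 were called by edgeR, DESeq2 or limma-voom (2 higher and 0 lower in edgeR at an unadjusted p under 0.05). Their median log2 fold change was 0.71, with 4 positive and 1 negative. Both knockdown libraries were above both controls for 3 of the 5 and below both for 1 (26.2% and 25.5% of all genes tested). The highest in level, both of synapse proteins, were Syndig1 (log2 fold change 0.71, SE 0.22, edgeR adjusted p = 0.11) and Prrt2 (log2 fold change 0.12, SE 0.23, edgeR adjusted p = 0.83).

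The genes around the cluster were compared next, since members in 1 cluster share their surroundings. Within 250 kb of the cluster lay 40 other genes, of which 23 passed the filter. Of these, 3 were higher and 0 lower in shYthdf2 (7 and 0 at an unadjusted p under 0.05), against the 2.43% and 1.49% of all genes given above. The median log2 fold change was 0.19, with 18 positive and 5 negative values, and 11 had both knockdown libraries above both controls against 1 with both below, where all genes gave the 26.2% and 25.5% above. Neighbouring genes are not independent of each other, and the counts are given as a description of the region.

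Urah, an enzyme of urate breakdown 111 kb before the cluster, rose from 187 and 157 reads to 429 and 379 (log2 fold change 1.18, SE 0.22, edgeR adjusted p = 0.021). B4galnt4, a glycosyltransferase and the nearest gene after the cluster with a mean of at least 1 CPM, at 44.1 kb, rose from 1670 and 1365 reads to 2314 and 2424 (log2 fold change 0.59, SE 0.11, edgeR adjusted p = 0.024), but the call was lost without shScramble replicate 2 (adjusted p = 0.067). Hras, a GTPase of growth factor signalling, went from 1660 and 1440 reads to 2660 and 2155 (log2 fold change 0.59, SE 0.14, edgeR adjusted p = 0.048), a call lost in 4 of 13 other settings and with the largest adjusted p, 0.12, without shYthdf2 replicate 1. Nearer still on that side, at 41.6 kb, the low gene model Gm39114, named after its values were seen, passed the filter with 26 and 29 against 20 and 34 reads, groups that overlapped (log2 fold change -0.09, SE 0.52). On the other side, Pgghg, 1.29 kb before the cluster, had 861 and 718 against 1101 and 1195 reads (log2 fold change 0.49, SE 0.14, edgeR adjusted p = 0.077). The log2 fold changes did not fall off evenly from Ifitm1: Ifitm2, with its start at -7.74 kb, had 0.37, and Ifitm3, at 43.3 kb, had 0.70. Here a start is the outer 5′ end of the counted exons of a gene, not its RefSeq start.

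**Figure D4:**
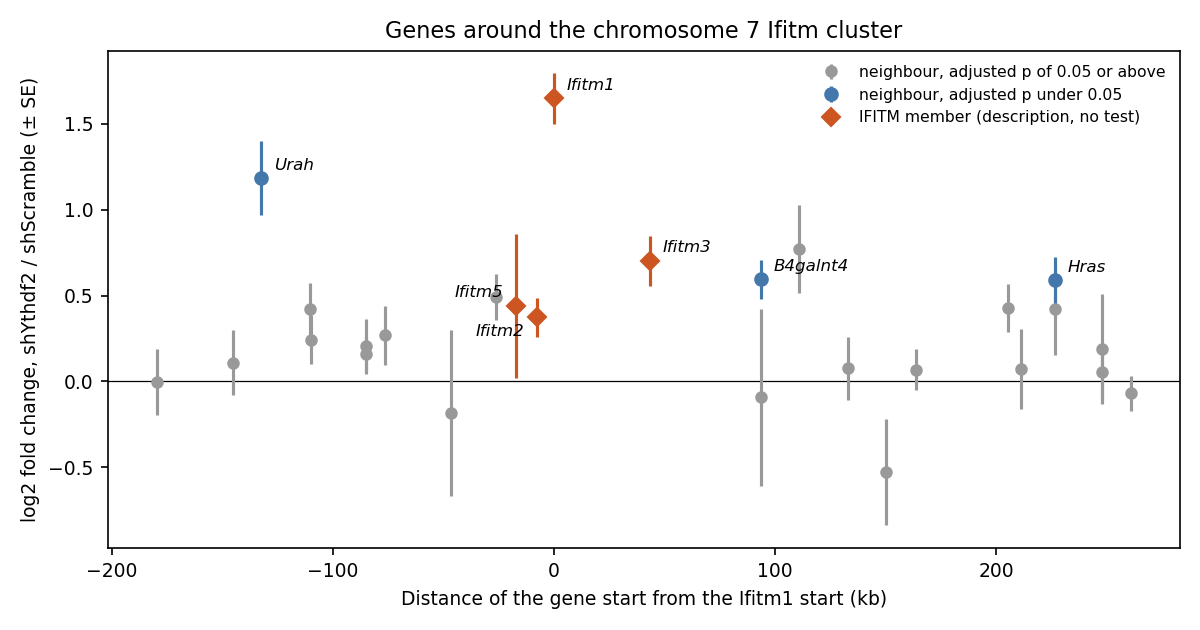
log2 fold change with its SE against the distance of the gene start from that of Ifitm1, in kb, for the 4 IFITM genes of the cluster that passed the filter (orange diamonds, no test) and 23 neighbours (circles, blue where the edgeR adjusted p is under 0.05). Ifitm1 stands at 1.65, above Urah at 1.18, while B4galnt4 and Hras both lie at 0.59. Gene starts are the outer 5′ ends of the counted exons, not RefSeq starts.

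Marker lists of other cell types that transcribe IFITM genes were set beside these values. Primordial germ cell markers, all 13 expressed, summed to 3690 to 3908 CPM in shScramble and 3166 to 3644 CPM in shYthdf2. Pou5f1, Nanog and Sox2, with the highest CPM of the 13, are also in the ESC list, so the sum is not particular to germ cells. By edgeR's adjusted p 0 were higher and 2 lower. These were Kit, a receptor tyrosine kinase (log2 fold change -0.47, edgeR adjusted p = 0.042), and Prdm14, a germ cell and ESC regulator (-0.51, edgeR adjusted p = 0.049). At an unadjusted p under 0.05, 3 were higher and 5 lower, and DESeq2 called 0 and 3, limma-voom 0 and 2. Primitive streak and mesoderm markers summed to 41.4 to 42.0 and 31.9 to 38.6 CPM, with 13 of 18 above the filter and 0 called by edgeR's adjusted p (0 higher and 2 lower at an unadjusted p under 0.05, 0 and 1 by DESeq2). In this list Eomes and Cdx1 had the highest levels (log2 fold changes -0.26 and -1.60, edgeR adjusted p = 0.43 and 0.069), while Mesp1 and Msgn1 had at most 14 reads in a library. Of the 13, 3 had both knockdown libraries above both controls and 4 had both below (26.2% and 25.5% of all genes tested). Mesp2 (64 and 58 against 89 and 103 reads) was among the former and T (54 and 94 against 43 and 20) among the latter. Trophoblast markers summed to 208 to 219 and 158 to 180 CPM, with 10 of 12 above the filter, 0 higher and 2 lower, the homeobox gene Esx1 (log2 fold change -1.44, edgeR adjusted p = 0.0015) and the trophectoderm factor Tead4 (-0.76, edgeR adjusted p = 0.037). Of these 10 trophoblast markers, 1 was higher and 5 were lower at an unadjusted p under 0.05 in edgeR. DESeq2 and limma-voom each called 0 higher and 2 lower, and the median log2 fold change of the list was -0.72. None of these 3 sums was higher in the knockdown.

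The other 3 sums were higher in both knockdown libraries than in both controls. Primitive endoderm markers summed to 408 to 430 and 462 to 557 CPM, with 13 of 14 above the filter and 0 called by edgeR's adjusted p, DESeq2 or limma-voom (2 higher and 0 lower in edgeR at an unadjusted p under 0.05). The most abundant of them, the matrix genes Sparc and Lama1, had log2 fold changes of 0.35 (edgeR adjusted p = 0.13) and -0.03 (edgeR adjusted p = 0.95). Of its 13 log2 fold changes 9 were positive. Among the defining factors, named after their values were seen, Gata4 had 30 to 36 reads over the 4 libraries, Sox17 had 16 to 28, and Gata6 had 96 and 115 against 169 and 79, all overlapping between groups. Of the 13, 4 had both knockdown libraries above both controls and 1 had both below (26.2% and 25.5% of all genes tested). Hnf4a (79 and 68 against 134 and 104 reads) and Dab2 (172 and 143 against 276 and 187) were among the former. The 1 below was Pdgfra (5.08 and 4.54 against 4.36 and 2.43 CPM). Foxa2, under the filter (4 and 6 against 13 and 9 reads), also had both knockdown libraries above both controls. Fibroblast markers summed to 1968 to 2148 and 2379 to 2475 CPM, but only 6 of 12 passed the filter, 3 with positive and 3 with negative log2 fold changes. Under the filter, Col3a1, Dcn, Lum and Postn had at most 7 reads in a library, and Acta2 had 0 and 4 against 9 and 13. Among those that passed, Col1a1 had 125 and 72 reads against 47 and 58, both knockdown libraries below both controls. Thy1 (476 and 479 against 266 and 486) and Pdgfrb (182 and 336 against 114 and 242) overlapped between groups. Vimentin (Vim), a filament protein that ESCs also make, rose (log2 fold change 1.06, SE 0.12, edgeR adjusted p = 0.0031), while the most abundant, the matrix gene Fn1, had a log2 fold change of 0.13 (edgeR adjusted p = 0.55). The part of these lists in the IFITM levels was not tested.

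The markers of 2-cell-like cells, a rare state with genes of the early embryo active, summed to 60.2 and 97.3 CPM under shScramble and 131 and 355 CPM under shYthdf2. Of 21 markers 19 passed the filter, Tdpoz1 was at 0 in all libraries, and 4 were higher: Zscan4a (log2 fold change 2.28, edgeR adjusted p = 0.034), Gm4340 (2.40, adjusted p = 0.036), Usp17la (1.29, adjusted p = 0.029) and Usp17le (1.44, adjusted p = 0.048). At an unadjusted p under 0.05, 16 were higher and 0 lower, and DESeq2 called 5 higher but limma-voom only 1. The order of the 2 knockdown libraries was opposite to that of Ifitm1, Ifitm2 and Ifitm3. Against the control mean, Ifitm1 was at 1.76 and 1.52 log2 units in shYthdf2 replicates 1 and 2, Ifitm3 at 0.92 and 0.46 and Ifitm2 at 0.48 and 0.27, each higher in replicate 1, whereas the scarce Ifitm5 (0.41 and 0.46) and Ifitm7 (-0.31 and 0.93) were higher in replicate 2. The median of the 2-cell-like markers was at 0.56 and 1.81, far higher in replicate 2, and that of the ISGs at 0.04 and 0.19. Between the controls the order was shared. In shScramble replicates 1 and 2 the 2-cell-like median was at -0.38 and 0.30, Ifitm1 at -0.19 and 0.17 and Ifitm2 at -0.07 and 0.07. Ifitm3 was almost level there, at 0.01 and -0.01. Each order sets 1 library against 1, and a link between these genes and the markers was not tested.

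**Figure D5:**
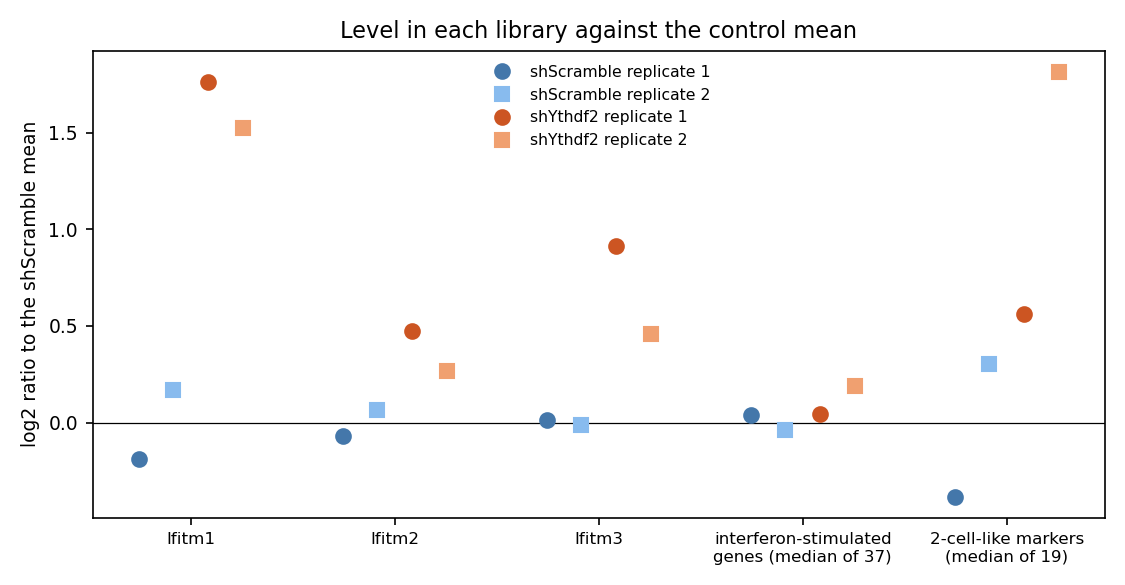
log2 ratio of each library to the shScramble mean for Ifitm1, Ifitm2 and Ifitm3 and for the median of 37 interferon-stimulated genes and of 19 2-cell-like markers. For the 3 IFITM genes shYthdf2 replicate 1 is the highest library, while for the 2-cell-like markers it is shYthdf2 replicate 2, at 1.81. Of the controls, shScramble replicate 2 is the higher for Ifitm1, Ifitm2 and these markers.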

How the data were processed

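The authors deposited raw counts per gene for all 4 libraries in one table. Per the file headers they were made with featureCounts 2.0.3 over mm10 exons, without strand and without counting pairs, so a count is a read. The libraries were stranded (dUTP). The submitters' processing notes also name fastp 0.19.4, HISAT2 2.2.1 and DESeq2 1.40.2. There were 0 other sample columns. Counts were fitted with edgeR 4.0.16 in R 4.3.3 (quasi-likelihood F test, two-sided, TMM, filterByExpr with minimum count 10 and minimum total 15, Benjamini-Hochberg over 18341 genes, threshold 0.05), a script tested on simulated data. Alternatives used DESeq2 1.42.0, limma-voom (limma 3.58.1), other scalings and filters, halved counts, a replicate block and fits without each library. Levels per length used the deposited exon lengths. With 2 libraries a group, an exact permutation test cannot give a two-sided p below 0.333, and though the study's methods call the replicates independent and biological, they do not say whether lines or cultures were separate, so p-values measure the spread between these libraries. Members and lists were chosen with earlier results of these data known. Besides the members, the genes named are those past the threshold in a list, otherwise its 2 most abundant, the nearest neighbours with a mean of at least 1 CPM, and the 5 genes most like Ifitm1 (mean of at least 1 CPM, prior count 2). Other genes were named after their values were seen: Isg15, Ifit1, Mx2, Irf7, Zbp1, Rtp4, Gbp2, the 7 ligands, Gm39114, Bmerb1, Tdpoz1 and Sox2. So were Pdgfra and the markers given by reads in the endoderm, mesoderm and fibroblast lists. Coding sequences were aligned with Biopython 1.88. One list gene is counted but not reported here.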

Additional observations from a re-analysis of the deposited data

How the results depend on the processing

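Of the values recomputed under other settings, 147 stayed within set limits of those reported, 26 moved and 1 reversed. For a call count the limit was a fixed ratio, and for a log2 fold change the gene's own SD between replicates. A noisy gene could therefore shift far and still be within its limit, as Ifitm7 did from 0.44 to 0.93 without shYthdf2 replicate 1. The log2 fold changes with each library left out ranged from 1.48 to 1.83 for Ifitm1, 0.27 to 0.48 for Ifitm2, 0.46 to 0.92 for Ifitm3, 0.22 to 0.70 for Ifitm5 and -0.30 to 0.93 for Ifitm7. Ifitm7 turned negative, at -0.30, without shYthdf2 replicate 2. Ifitm1 held place 3 per length under TPM and without each library. Genes called over the whole table numbered 445 higher and 273 lower as reported, 1095 and 843 with no filter, 800 and 602 by DESeq2, and 534 to 1175 and 300 to 1113 with 1 library left out, the most without shYthdf2 replicate 2. In such fits the lone library of a group was assumed to vary like the other group. Interferon-stimulated genes called higher fell from 2 to 1 with RLE, upper quartile or library-total scaling, and 1 was called lower with no filter. With 1 library left out they numbered 2 to 4 higher and 0 to 1 lower, and the neighbours of the cluster 2 to 3 higher and 0 to 1 lower. Of the 2-cell-like markers 4 were called higher by edgeR, 5 by DESeq2 and 1 by limma-voom, and of the ESC markers 1, 3 and 2 were called lower.

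The replicate numbers are shared between groups, but the labels name no batch, there are only 2 pairs, and same-numbered libraries deviated together with a correlation of 0.34 over 14441 genes, so they were not taken as pairs. With the replicate number as a block, 1851 genes were higher and 1674 lower, 5 interferon-stimulated genes were higher and 1 lower, and 7 neighbours of the cluster were higher and 1 lower. The block left the log2 fold change of Ifitm1 at 1.65. With 2 libraries a group and counts of under 120 reads, no direction could be resolved for Ifitm5, Ifitm6, Ifitm7 and Ifitm10.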
